A study of Rattus norvegicus with 84 samples.

Results

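Lig4, Phkg1 and Ppp1r3g are 3 of the 41919 genes in a table of RNA counts from the rat nucleus accumbens, a striatal region that takes part in reward and drug seeking. They were picked because their counts differed between the Ext_Coc and Ctx_Coc groups. The values of that contrast are therefore a description, and members were tested only in contrasts without those groups. All animals were wild-type Long-Evans rats, and RNA was taken from the Core or the Shell of the nucleus accumbens. The study set cocaine withdrawal against extinction. Ext stands for extinction and Coc and Sal for cocaine and saline. HC and Ctx are not spelled out in the labels, and in this field they commonly mean home cage and context. Each subregion had an HC_Sal, HC_Coc, Ext_Sal, Ext_Coc, Ctx_Sal and Ctx_Coc group of 7 libraries, which makes 12 groups and 84 libraries. Age, dose and times were not given in the sources used here. The labels also do not say that libraries of a group were from different rats. The p-values below therefore rest on the spread between libraries, part of which may be technical. All 3 members passed the filter on low counts in both subregions.

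Lig4 encodes DNA ligase IV, the enzyme that seals double-strand breaks in non-homologous end joining, the main route of break repair in cells that no longer divide. It acts with its partner Xrcc4 after the Ku proteins (Xrcc5 and Xrcc6) have bound the broken ends. Phkg1 and Ppp1r3g belong to glycogen metabolism, with opposite roles. Phkg1 is a catalytic subunit of phosphorylase kinase, which switches on glycogen phosphorylase and so glycogen breakdown, and it is best known from skeletal muscle. Ppp1r3g is a subunit that brings protein phosphatase 1 to glycogen, where the phosphatase favours glycogen synthesis. In the brain glycogen is held mainly in astrocytes.

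The 3 genes lie on different chromosomes. The 250 bases before the RefSeq start of each gene are shown because the members were picked together, so that their upstream sequences can be compared. All 3 matched the RefSeq promoter table of build GRCr8, and the coordinates belong to that build, not to mRatBN7.2, on which the counts were made. The Lig4 sequence is chr16:86220192-86220441 (plus strand), that of Phkg1 is chr12:32474827-32475076 (plus strand) and that of Ppp1r3g is chr17:29083740-29083989 (minus strand). Each is written 5′ to 3′ on the strand of its gene. Capitals mark matches, on either strand, to the GC box (GGGCGG), the CCAAT box (CCAAT) and TGACG, the core of the cAMP response element.
Lig4: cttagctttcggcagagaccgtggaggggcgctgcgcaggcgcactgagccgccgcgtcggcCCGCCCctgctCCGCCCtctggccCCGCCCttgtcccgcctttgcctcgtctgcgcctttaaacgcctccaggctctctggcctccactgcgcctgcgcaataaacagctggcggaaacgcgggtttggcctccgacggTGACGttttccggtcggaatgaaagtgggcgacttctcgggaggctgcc
Phkg1: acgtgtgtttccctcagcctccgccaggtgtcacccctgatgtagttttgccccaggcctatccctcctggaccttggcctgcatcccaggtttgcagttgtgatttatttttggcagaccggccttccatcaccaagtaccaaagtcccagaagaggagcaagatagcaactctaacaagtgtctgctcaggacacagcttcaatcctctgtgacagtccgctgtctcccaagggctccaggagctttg
Ppp1r3g: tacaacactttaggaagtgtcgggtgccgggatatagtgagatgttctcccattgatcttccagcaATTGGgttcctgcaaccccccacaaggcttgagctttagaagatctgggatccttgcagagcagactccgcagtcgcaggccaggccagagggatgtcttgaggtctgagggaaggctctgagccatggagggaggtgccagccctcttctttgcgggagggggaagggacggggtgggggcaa

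Upstream of Lig4 there were 3 GC boxes, all on the opposite strand, and 1 TGACG. Upstream of Ppp1r3g there was 1 CCAAT box, on the opposite strand. The Phkg1 window held none of the 6 motifs searched. Over 33469 promoter windows of the same length, a GC box was present in 30.5%, a CCAAT box in 34.0% and TGACG in 18.2%. The other motifs searched were TATAAA (12.9% of windows), TGANTCA (6.34%) and CACGTG (5.59%), and no member window held one. None of the 6 motifs contains another. Lig4 had the highest share of G and C, 67.6%, against 57.6% for Ppp1r3g, 54% for Phkg1 and a median of 51.2% over all windows. These matches are a description of the letters and say nothing of binding.

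Libraries held 13.6 to 22.5 M (mega) counts, 17.2 ± 1.98 M on average (SD, n = 84). By their titles the Core libraries form series 1, 2 and F, and those of the Shell form series 3, 4 and F. Counts summed over 2033 chemosensory receptor genes (olfactory and vomeronasal), little expressed in the brain, served as a measure of counts spread over the genome. That sum is called the background level here, in log2 CPM (CPM are counts scaled to library size). It uses the raw library totals. The member log2 CPM use library sizes adjusted by TMM factors, a normalisation between libraries, so the scales are not the same. It ran from 6.18 to 10.61 in Core, with the Ctx_Coc library 17-F apart at 12.10, and from 6.61 to 11.23 in Shell. Markers of striatal projection neurons (8 of 8 measured, none at 0) summed to 249 CPM in 17-F and to at least 865 CPM in the other Core Ctx_Coc libraries. In TMM-scaled log2 CPM, 17-F was the lowest Core Ctx_Coc library for each member. In the authors' FPKM, scaled to gene length and library total without TMM factors, the order differed. There 17-F was the highest of that group for Phkg1 (0.778), the lowest for Ppp1r3g (0.451) and between the others for Lig4 (0.817). Core differences between Ext_Coc and Ctx_Coc are given with and without it, and those with DESeq2's size factors only with it. Phkg1 also split the Core libraries of the F series: 4 of them held 30 to 41 counts (1-F and 9-F of Ext_Coc, 3-F of Ext_Sal and 13-F of HC_Coc), and the other 38 Core libraries held 86 to 206. In total RNA from tissue, fewer cells of a type and less RNA per cell cannot be told apart.

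The members were measured by few counts. The median library held 139 counts of Lig4 in Core and 143.5 in Shell, 124.5 and 118.5 of Phkg1, and 37.5 and 33.5 of Ppp1r3g. Per length, in the authors' FPKM (fragment counts scaled to gene length and library size), the order was the same in both subregions, with Lig4 highest and Phkg1 lowest. The Core levels were 1.03 ± 0.326 for Lig4, 0.674 ± 0.153 for Ppp1r3g and 0.471 ± 0.168 FPKM for Phkg1 (SD, n = 42). The Shell levels were 0.936 ± 0.267, 0.612 ± 0.166 and 0.440 ± 0.096 FPKM in the same order (SD, n = 42). The lengths behind these values were 8564, 3333 and 15726 bases in that order. The list genes below had lengths of up to 265421 bases, which span introns, so FPKM understates genes with long introns.

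**Figure D1:**
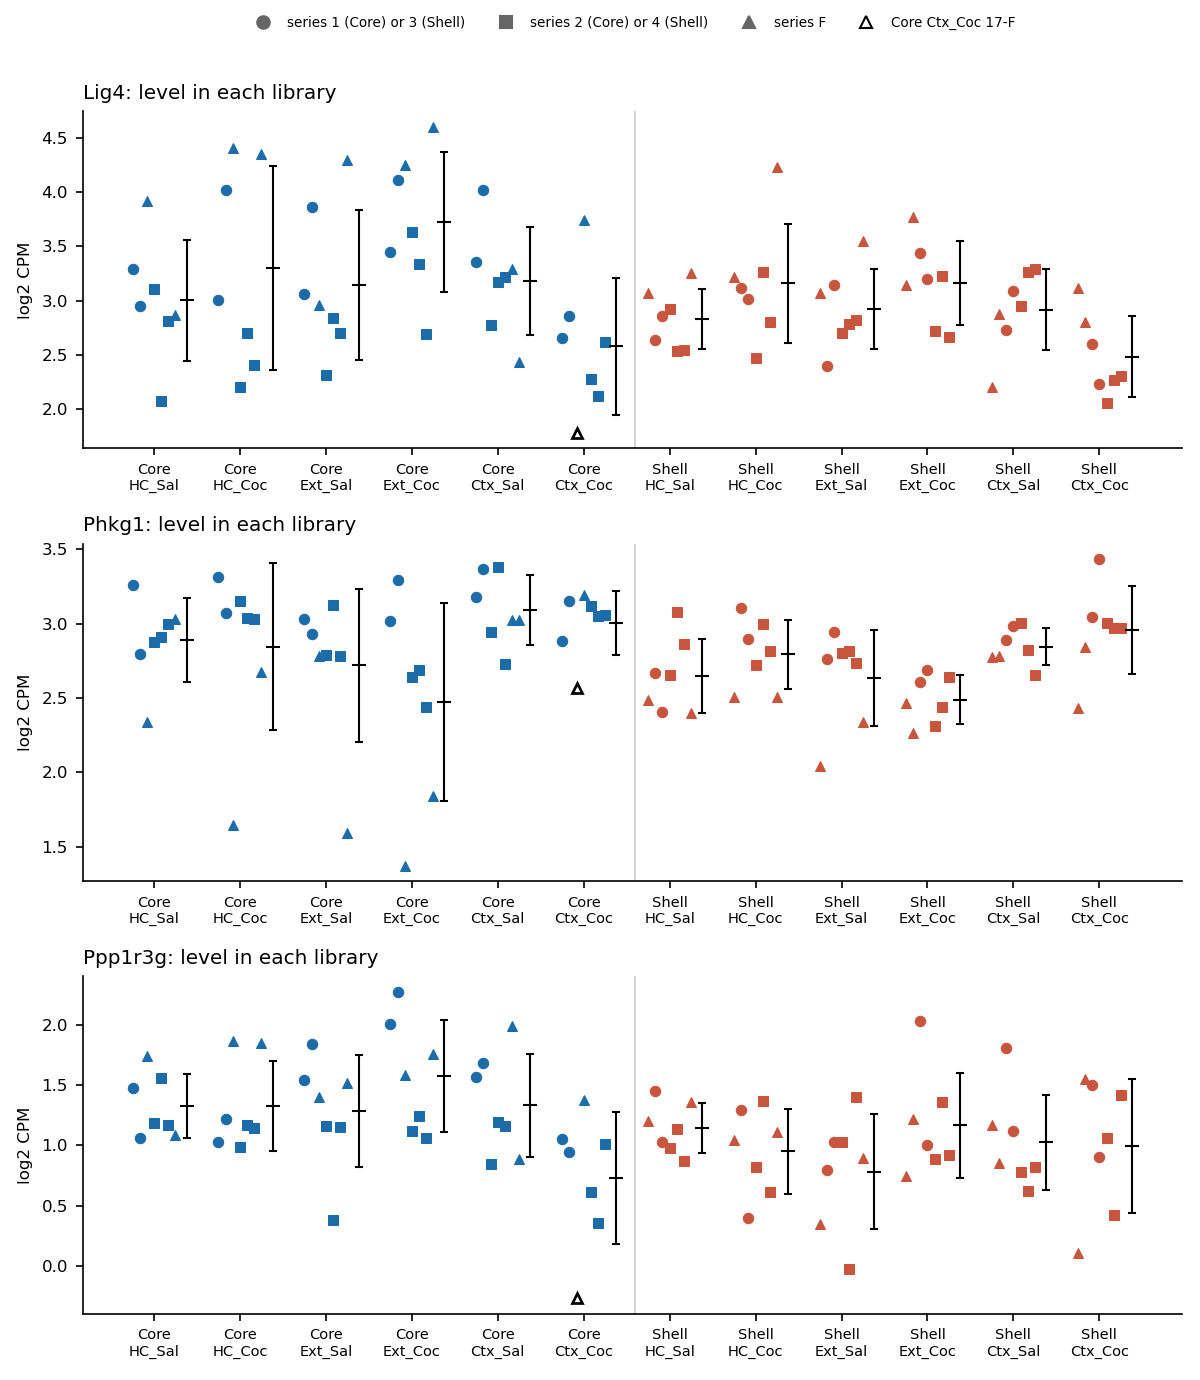
Level of Lig4, Phkg1 and Ppp1r3g (log2 CPM) in each of the 84 libraries, by subregion and treatment, with marker shapes for the series and an open triangle for Core library 17-F. Black bars are the mean and SD of 7 libraries. The Ctx_Coc groups sit low for Lig4, the Ext_Coc groups sit low for Phkg1, and Ext_Coc and Ctx_Coc overlap in every panel.

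Lig4 was higher in Ext_Coc than in Ctx_Coc in both subregions. In Core its lowest, median and highest levels were 2.70, 3.63 and 4.60 log2 CPM in Ext_Coc (139 to 244 counts) and 1.78, 2.62 and 3.74 in Ctx_Coc (80 to 166 counts). In Shell they were 2.66, 3.20 and 3.77 in Ext_Coc (157 to 201 counts) and 2.06, 2.30 and 3.12 in Ctx_Coc (76 to 160 counts). All 7 Ext_Coc libraries lay above the Ctx_Coc mean in each subregion, or 6 of 7 in Core without 17-F. The groups overlapped through the Ctx_Coc libraries 19-F and 1-15 in Core and the Ctx_Coc F libraries 18-F and 20-F in Shell. The fitted difference was 1.08 ± 0.28 on the log2 scale in Core (SE, 2.12-fold) and 0.71 ± 0.19 in Shell (1.63-fold). Without 17-F the Core difference was 0.93 ± 0.27 (1.91-fold). Within the series the groups did not overlap: the mean differences were 1.03, 0.88 and 1.66 log2 CPM in Core series 1, 2 and F, and 0.90, 0.66 and 0.49 in Shell series 3, 4 and F. The Core F value was 0.68 without 17-F, with 1 Ctx_Coc library left. These series hold 2 or 3 libraries a group, and groups this small often separate by chance. The share of all genes without overlap within a series is not given. The members were picked on this contrast, so nothing is read from the lack of overlap.

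The remaining Lig4 groups lay mostly between these. In Core the lowest, median and highest levels were 2.08, 2.95 and 3.92 log2 CPM in HC_Sal, 2.20, 3.00 and 4.40 in HC_Coc, 2.31, 2.96 and 4.30 in Ext_Sal, and 2.44, 3.21 and 4.02 in Ctx_Sal. In Shell they were 2.54, 2.86 and 3.25 in HC_Sal, 2.47, 3.11 and 4.23 in HC_Coc, 2.40, 2.82 and 3.55 in Ext_Sal, and 2.21, 2.95 and 3.29 in Ctx_Sal. By mean, Core Ext_Coc came first (3.72 ± 0.64, SD, n = 7), then Core HC_Coc, Core Ctx_Sal, Shell Ext_Coc, Shell HC_Coc, Core Ext_Sal, Core HC_Sal, Shell Ext_Sal, Shell Ctx_Sal and Shell HC_Sal. Core Ctx_Coc (2.58 ± 0.63) and Shell Ctx_Coc (2.48 ± 0.37) came last. No pair of neighbours in this order differed by more than the larger of their SDs. Contrasts that share the Ext_Coc or Ctx_Coc libraries are a description with no test, since the choice of the members partly sets them. Ctx_Coc minus HC_Coc was -0.70 ± 0.28 in Core (-0.54 ± 0.27 without 17-F) and -0.72 ± 0.19 in Shell (SE). Ext_Coc minus HC_Coc was 0.38 ± 0.28 in Core and -0.01 ± 0.18 in Shell. In Shell the Ext_Coc and HC_Coc means were thus both 3.16 log2 CPM, with Ctx_Coc below both. The Core series were not alike. In series 1, 2 and F, Ctx_Coc minus HC_Coc was -0.75, -0.10 and -1.61 log2 CPM (-0.63 in F without 17-F). Ext_Coc minus HC_Coc was 0.27, 0.785 and 0.05 there. Without the F series the fitted Core value of Ctx_Coc minus HC_Coc was -0.40 ± 0.24. Against the saline group of the same condition, Ctx_Coc was lower by fitted values of -0.60 ± 0.28 in Core (-0.46 ± 0.27 without 17-F) and -0.51 ± 0.19 in Shell, and Ext_Coc differed by 0.55 ± 0.28 and 0.24 ± 0.18. The Ctx_Coc minus Ctx_Sal values were not alike across series: they were -0.93 and -0.71 log2 CPM in Core series 1 and 2, -0.49 and -0.96 in Shell series 3 and 4, and in series F -0.10 in Core (0.88 without 17-F) and 0.42 in Shell. With the background level as a covariate the fitted Core value was -0.25.

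Phkg1 was lower in Ext_Coc than in Ctx_Coc, with the 2 subregions differing in how the libraries lay. In Shell its lowest, median and highest levels were 2.27, 2.47 and 2.69 log2 CPM in Ext_Coc (70 to 155 counts) and 2.44, 2.97 and 3.43 in Ctx_Coc (99 to 177 counts). All 7 Shell Ext_Coc libraries lay below the Ctx_Coc mean, and the groups overlapped through 1 Ctx_Coc library, 18-F. In Core the levels were 1.37, 2.64 and 3.30 in Ext_Coc (30 to 147 counts) and 2.57, 3.06 and 3.19 in Ctx_Coc (113 to 206 counts). The 2 lowest Core libraries were 1-F and 9-F, and the highest of the 14, a series 1 library, was also Ext_Coc. The fitted difference was -0.47 ± 0.10 in Shell (SE, 1.39-fold lower) and -0.53 ± 0.19 in Core (1.44-fold lower). Without 17-F the Core value was -0.54 ± 0.20.

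The Core difference of Phkg1 was not alike across series. The mean difference was 0.14 log2 CPM in series 1, where the groups overlapped, -0.49 in series 2 and -1.27 in series F (-1.58 without 17-F). Without the F series the fitted Core difference was -0.25 ± 0.14, and with the F series alone it was -1.28 ± 0.61. The Shell differences were -0.59, -0.52 and -0.27 in series 3, 4 and F. Only the Shell F libraries overlapped among these. The limits given for Lig4 on overlap within series hold here too.

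**Figure D2:**
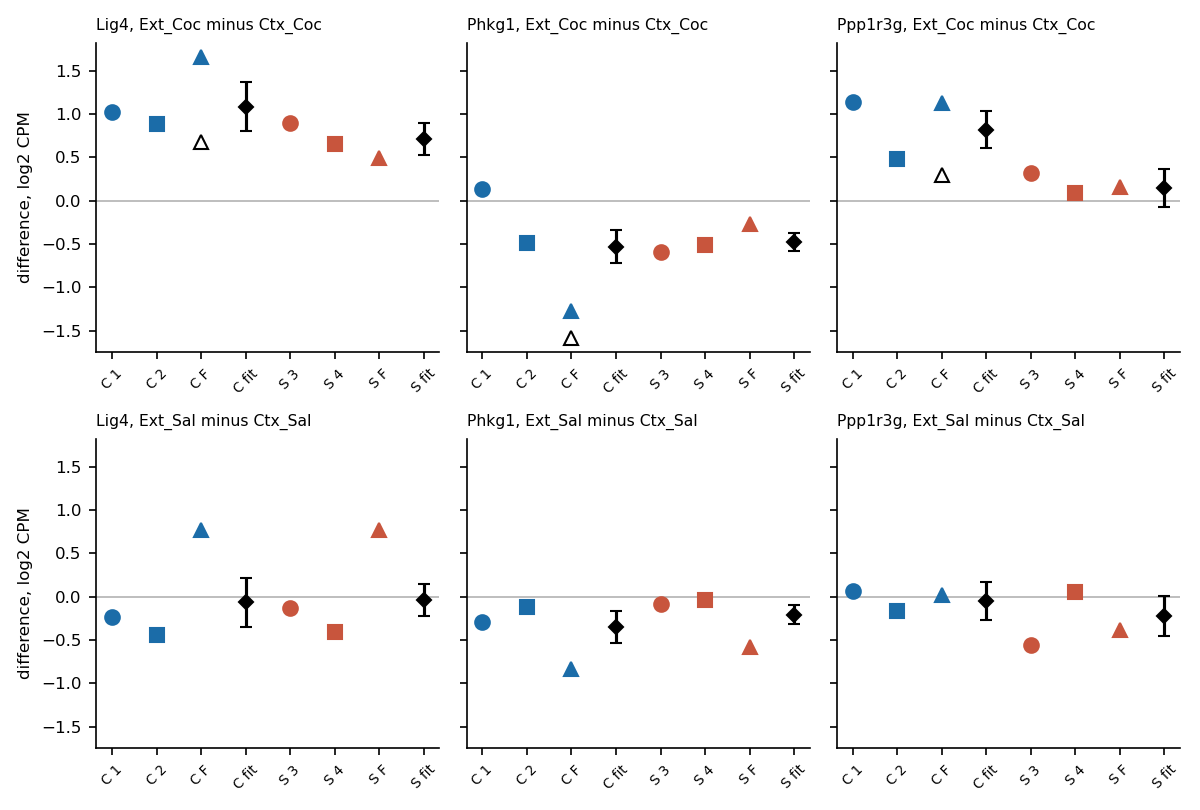
Mean difference in log2 CPM between Ext and Ctx libraries within each series (C, Core; S, Shell), for cocaine above and saline below, with black diamonds for the fitted log2 fold change and its SE. Open triangles are Core series F without 17-F. Lig4 is above 0 in all 6 series for cocaine and runs from -0.44 to 0.77 for saline, and Phkg1 is at 0.14 in Core series 1.

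Across the 12 groups the means of Phkg1 spanned less than those of the other members, and the 3 highest were Ctx groups. In Core the lowest, median and highest levels were 2.34, 2.91 and 3.26 log2 CPM in HC_Sal, 1.65, 3.04 and 3.31 in HC_Coc, 1.60, 2.79 and 3.13 in Ext_Sal, and 2.73, 3.03 and 3.38 in Ctx_Sal. In Shell they were 2.40, 2.65 and 3.08 in HC_Sal, 2.51, 2.82 and 3.10 in HC_Coc, 2.04, 2.76 and 2.95 in Ext_Sal, and 2.65, 2.83 and 3.01 in Ctx_Sal. By mean the order was Core Ctx_Sal (3.09 ± 0.23, SD, n = 7), Core Ctx_Coc (3.00 ± 0.22), Shell Ctx_Coc (2.96 ± 0.30), Core HC_Sal, Core HC_Coc, Shell Ctx_Sal, Shell HC_Coc, Core Ext_Sal, Shell HC_Sal, Shell Ext_Sal, Shell Ext_Coc (2.49 ± 0.16) and Core Ext_Coc (2.47 ± 0.67). Neighbours in this order again differed by less than the larger of their SDs. With no test, Ext_Coc minus HC_Coc was -0.37 ± 0.19 in Core and -0.29 ± 0.10 in Shell (SE), and all 7 Shell Ext_Coc libraries lay below the HC_Coc mean. Ctx_Coc minus HC_Coc was 0.16 ± 0.19 in Core (0.17 ± 0.19 without 17-F) and 0.18 ± 0.10 in Shell. Against saline, Ext_Coc differed by -0.25 ± 0.19 and -0.16 ± 0.10, and Ctx_Coc by -0.07 ± 0.19 (-0.06 ± 0.20 without 17-F) and 0.11 ± 0.10.

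Ppp1r3g was higher in Ext_Coc than in Ctx_Coc in Core, and the Shell groups lay close together. In Core its lowest, median and highest levels were 1.06, 1.59 and 2.28 log2 CPM in Ext_Coc (32 to 72 counts) and -0.27, 0.95 and 1.38 in Ctx_Coc (22 to 43 counts). All 7 Core Ext_Coc libraries lay above the Ctx_Coc mean, and 4 of them lay above every Ctx_Coc library. In Shell the levels were 0.75, 1.00 and 2.04 in Ext_Coc (30 to 64 counts) and 0.11, 1.06 and 1.55 in Ctx_Coc (18 to 58 counts), so that the groups overlapped over most of their range. The fitted difference was 0.82 ± 0.22 in Core (SE, 1.77-fold), 0.67 ± 0.20 without 17-F (1.59-fold), and 0.14 ± 0.22 in Shell. Within the Core series 1, 2 and F the groups did not overlap, with mean differences of 1.14, 0.48 and 1.12 log2 CPM (0.30 in series F without 17-F). In Shell series 3, 4 and F the differences were 0.32, 0.09 and 0.15 and the groups overlapped. Nothing is read from the lack of overlap within Core series, for the reasons given with Lig4.

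The other Ppp1r3g groups were close to each other. In Core the lowest, median and highest levels were 1.06, 1.18 and 1.74 log2 CPM in HC_Sal, 0.99, 1.17 and 1.87 in HC_Coc, 0.38, 1.40 and 1.84 in Ext_Sal, and 0.85, 1.20 and 2.00 in Ctx_Sal. In Shell they were 0.87, 1.13 and 1.45 in HC_Sal, 0.40, 1.04 and 1.37 in HC_Coc, -0.03, 0.90 and 1.40 in Ext_Sal, and 0.62, 0.85 and 1.81 in Ctx_Sal. By mean the order was Core Ext_Coc (1.58 ± 0.47, SD, n = 7), Core Ctx_Sal, Core HC_Coc, Core HC_Sal, Core Ext_Sal, Shell Ext_Coc, Shell HC_Sal, Shell Ctx_Sal, Shell Ctx_Coc, Shell HC_Coc, Shell Ext_Sal (0.78 ± 0.48) and Core Ctx_Coc (0.73 ± 0.55). Of these neighbours too none differed by more than the larger SD. With no test, Core Ctx_Coc differed from Core HC_Coc by -0.57 ± 0.22 and from Core Ctx_Sal by -0.57 ± 0.22 (SE), and by -0.41 ± 0.20 and -0.42 ± 0.20 without 17-F. Core Ext_Coc differed from HC_Coc by 0.25 ± 0.22 and from Ext_Sal by 0.30 ± 0.21. The matching Shell values were 0.10 ± 0.23 and 0.02 ± 0.22 for Ctx_Coc and 0.24 ± 0.22 and 0.38 ± 0.22 for Ext_Coc.

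In the contrast used for the choice, no gene passed an adjusted p of 0.05 with edgeR or with DESeq2 in either subregion (0% of 31370 genes in Core and of 30911 in Shell), and 0 of the 3 members had groups that did not overlap, as against 0.00956% of all genes in Core (0.0128% without 17-F) and 0.0162% in Shell. At an unadjusted p under 0.05 edgeR counted 2986 genes in Core (9.52%), or 299 without 17-F, and 218 in Shell (0.705%), and DESeq2 6438 and 216. The ranks that follow hold 17-F. Ordered by p, Lig4 was 2nd, Ppp1r3g 6th and Phkg1 125th in Core, and Phkg1 was 1st, Lig4 3rd and Ppp1r3g 9725th in Shell. These ranks restate the choice of the members, and nothing is read from them. In Core the median gene itself differed by -0.18 on the log2 scale (-0.08 without 17-F), and by -0.30 with DESeq2's size factors, a shift of -0.12. With those factors the Core differences were 1.01 ± 0.25 for Lig4, -0.62 ± 0.20 for Phkg1 and 0.74 ± 0.19 for Ppp1r3g. The Shell median was 0.00.

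The saline groups give the same Ext against Ctx comparison in libraries that played no part in the choice. No member passed there, and 0% of genes did in either subregion. At an unadjusted p under 0.05 it was 0 of 3 members, against 0.912% of genes in Core and 8.32% in Shell. Phkg1 was the member nearest to the threshold: Ext_Sal minus Ctx_Sal was -0.35 ± 0.19 in Core (SE, edgeR unadjusted p = 0.0713, adjusted p = 1.00) and -0.21 ± 0.10 in Shell (edgeR unadjusted p = 0.0553, adjusted p = 0.509). Without Ext_Sal library 12-F, which had the highest Shell background level, the Shell value was -0.16 ± 0.10. Without Ext_Sal library 3-F, which held 39 Phkg1 counts, the Core value was -0.24 ± 0.18. Leaving out each library in turn gave -0.43 to -0.24 in Core and -0.25 to -0.16 in Shell. In each subregion 6 of 7 Ext_Sal libraries lay below the Ctx_Sal mean, and the within-series differences were -0.29, -0.12 and -0.84 log2 CPM in Core series 1, 2 and F and -0.08, -0.04 and -0.59 in Shell series 3, 4 and F. Lig4 differed by -0.07 ± 0.28 in Core and -0.04 ± 0.18 in Shell, and Ppp1r3g by -0.05 ± 0.22 and -0.22 ± 0.23. For Lig4 the series went in different directions, at -0.23, -0.44 and 0.77 in Core and -0.14, -0.40 and 0.77 in Shell. For Ppp1r3g they were 0.06, -0.17 and 0.02 in Core and -0.55, 0.06 and -0.39 in Shell. Markers of cortical glutamatergic neurons differed in the same contrast by estimates with a median of -1.14 in Core (8 of 8 lower) and -1.37 in Shell (6 of 8 lower), with 0 called. The median libraries were closer: their summed markers were at 171 CPM in Ext_Sal and 203 in Ctx_Sal in Core, and 219 and 233 in Shell. The highest libraries were at 244 and 470 CPM in Core, and 261 and 690 in Shell. Other lists differed by smaller estimates, with 0 called. In Core all markers were lower for astrocytes (8 of 8, median -0.13), oligodendrocytes (8 of 8, -0.20), microglia (8 of 8, -0.23) and blood (6 of 6, -0.22). In Shell all were lower for astrocytes (8 of 8, -0.26) and projection neurons (8 of 8, -0.20), most were lower for microglia (6 of 8, -0.19), oligodendrocytes (7 of 8, -0.11) and blood (5 of 6, -0.29), and all 7 choroid plexus markers were higher (0.20). The remaining medians lay between -0.07 and 0.06. The part of any of these in the member values was not tested. Whether the difference between Ext and Ctx depends on the drug was not tested, since that test would hold the libraries the members were chosen on.

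The other 3 saline or HC contrasts in each subregion gave no call for a member either, and none for any gene (0% in each). The largest member difference among them was that of Lig4 between HC_Coc and HC_Sal in Shell, 0.37 ± 0.18 (SE, edgeR unadjusted p = 0.0507, adjusted p = 0.891), with 5 of 7 HC_Coc libraries above the HC_Sal mean. In Core the same contrast gave 0.31 ± 0.28. Phkg1 differed by -0.04 ± 0.19 in Core and 0.13 ± 0.10 in Shell between these groups, and Ppp1r3g by -0.01 ± 0.21 and -0.18 ± 0.23. Between Ctx_Sal and HC_Sal the differences were 0.21 ± 0.28 and 0.16 ± 0.19 for Lig4, 0.19 ± 0.19 and 0.20 ± 0.10 for Phkg1, and -0.01 ± 0.21 and -0.10 ± 0.22 for Ppp1r3g (Core, then Shell). All 7 Shell Ctx_Sal libraries lay above the HC_Sal mean of Phkg1. Between Ext_Sal and HC_Sal they were 0.14 ± 0.28 and 0.12 ± 0.18, -0.16 ± 0.19 and -0.01 ± 0.10, and -0.06 ± 0.22 and -0.32 ± 0.23. At an unadjusted p under 0.05 these 6 contrasts held 0 member values, against 0.23%, 1.21% and 0.593% of genes in Core (Ext_Sal and Ctx_Sal against HC_Sal, then HC_Coc against HC_Sal) and 5.78%, 1.55% and 1.34% in Shell. Over all 8 contrasts edgeR had from 72 to 2572 such genes. For DESeq2, which also called 0 at the adjusted threshold in each, the numbers ran from 111 to 2835.

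**Figure D3:**
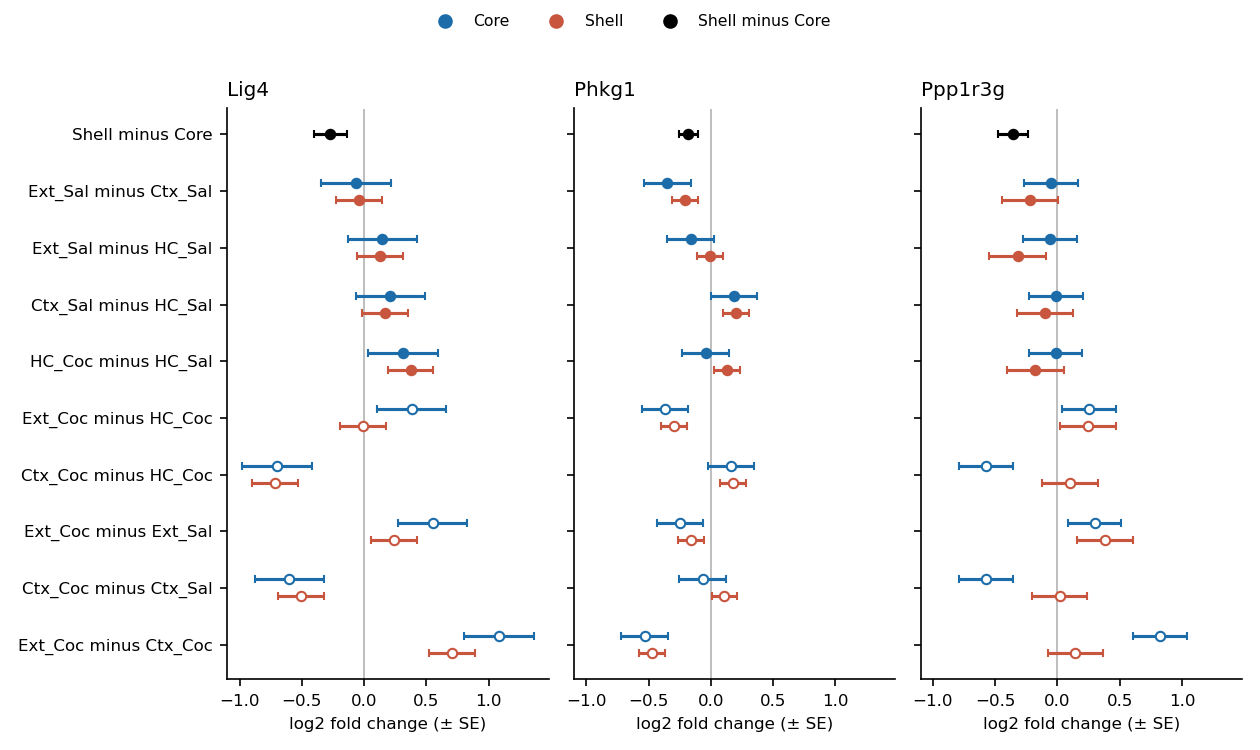
Fitted log2 fold change and SE of each member in every contrast, for Core (blue), Shell (red) and Shell minus Core (black). Filled points are contrasts tested, and open points hold the Ext_Coc or Ctx_Coc libraries and are a description. Filled points of the within-subregion contrasts lie between -0.35 and 0.37.

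Between subregions, over the 4 groups of each that the choice did not use, all 3 members were lower in Shell by their estimates and 1 of 3 passed, where 6.16% of 32145 genes passed as lower and 2.85% as higher (9% in all). Ppp1r3g passed narrowly, at -0.36 ± 0.12 (SE, 1.28-fold lower in Shell, edgeR adjusted p = 0.0497). Its mean Core levels in those groups were 1.29 to 1.33 log2 CPM and its Shell levels 0.78 to 1.15. Phkg1 was at -0.18 ± 0.08 (adjusted p = 0.142) and Lig4 at -0.27 ± 0.13 (adjusted p = 0.216), neither past the threshold. All 3 had an unadjusted p under 0.05, as did 21.3% of genes. The call of Ppp1r3g was lost without the filter on low counts (edgeR adjusted p = 0.0905) and without the F series (-0.26 ± 0.14, adjusted p = 0.316), where Phkg1 passed at -0.22 ± 0.07 (adjusted p = 0.0247). Outside the F series, subregion and series cannot be told apart, and with the F series alone edgeR called 0 genes (1048 at an unadjusted p under 0.05), with Ppp1r3g at -0.60 ± 0.31 (adjusted p = 0.874). With a replicate block on the title numbers, which also leaves out the F series, Ppp1r3g was not called (edgeR adjusted p = 0.0863) and Phkg1 was (adjusted p = 0.0182).

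In TMM-scaled log2 CPM, Lig4 and Ppp1r3g were lower in Core libraries with a high background level, and Phkg1 was not. Over the 41 Core libraries without 17-F, Pearson's r of the member's log2 CPM with the background level was -0.84 for Lig4, -0.68 for Ppp1r3g and 0.36 for Phkg1. Over the 42 Shell libraries it was -0.47, -0.31 and 0.01. Both measures come from the same libraries and share depth and series, so these values are a description. The member levels also carry the TMM factor of each library, and its part in r was not tested. FPKM lacks that factor, and r was not taken on it. In the Core libraries of lowest and highest background without 17-F, 19-F and 2-14, Ppp1r3g was at 1.38 and 0.36 log2 CPM. In FPKM it was at 0.497 and 0.460 there. The background level was 8.69 ± 1.74 in Core Ext_Coc and 9.84 ± 1.83 in Core Ctx_Coc (SD, n = 7), with medians of 9.64 and 10.31, and 10.05 ± 0.55 and 10.13 ± 0.22 in the 2 Shell groups. With it as a covariate, the Ext_Coc minus Ctx_Coc difference was 0.77 ± 0.18 for Lig4, -0.44 ± 0.17 for Phkg1 and 0.66 ± 0.17 for Ppp1r3g in Core (SE; 0.75, -0.46 and 0.60 without 17-F), and 0.66 ± 0.17, -0.48 ± 0.10 and 0.12 ± 0.20 in Shell. With it, Shell minus Core was 0.02 ± 0.09 for Lig4, -0.18 ± 0.07 for Phkg1 (edgeR adjusted p = 0.0403) and -0.19 ± 0.10 for Ppp1r3g (adjusted p = 0.135). If receptor-gene counts per base fell evenly over every gene, they would make up a median of 17.1% of Lig4 counts in Core and 21.0% in Shell, 34.1% and 40.0% of Phkg1 counts, and 25.8% and 29.1% of Ppp1r3g counts. In 17-F that estimate was 103 of 107 Lig4 counts, 190 against 187 Phkg1 counts and 40.2 against 23 Ppp1r3g counts, so the counts there were no higher than the estimate for Phkg1 and Ppp1r3g. The Shell Ext_Sal library 12-F also held fewer Phkg1 counts, 83, than its estimate of 93.7. The 4 Core libraries with few Phkg1 counts had background levels of 6.29 to 7.18, at the low end, while the Ctx_Coc library 19-F, with the lowest Core background at 6.18, held 113 Phkg1 counts and the Ext_Coc library 1-3, at 7.01, held 119.

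**Figure D4:**
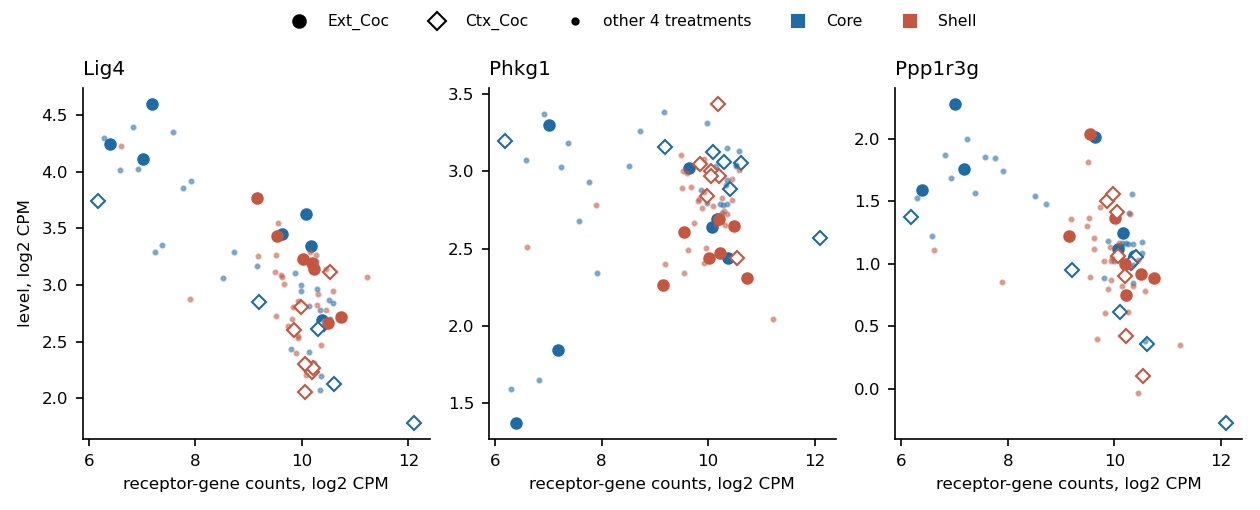
Level of each member (log2 CPM) against the background level (log2 CPM summed over 2033 receptor genes), 1 point per library, with Ext_Coc filled large circles, Ctx_Coc open diamonds and the other treatments small points. Lig4 and Ppp1r3g fall toward high background in Core (r of -0.84 and -0.68 without 17-F, the point at 12.10), and 4 Core libraries stand apart at low Phkg1. Member levels are TMM-scaled and the background level is not.

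Cell type markers also differed in Core between Ext_Coc and Ctx_Coc, by estimates of which 0 passed the test. All 8 markers were higher for projection neurons (median 0.43, or 0.21 without 17-F), for astrocytes (0.44, or 0.23) and for oligodendrocytes (0.60, or 0.37), and 7 of 7 choroid plexus markers were lower (-0.64, or -0.32). The summed oligodendrocyte markers ran from 2593 to 5217 CPM in Core Ext_Coc and from 1706 to 4070 in Ctx_Coc without 17-F (395 with it). In Shell they ran from 804 to 1252 and from 770 to 1282, with a median difference of 0.00. Of 10 skeletal muscle markers, the tissue in which Phkg1 is best known, 8 were lower in Core Ext_Coc (median -0.48), or 7 without 17-F (-0.27), and 6 in Shell (-0.01). Their sums ran from 26.4 to 77.3 CPM and 30.5 to 115 CPM in Core Ext_Coc and Ctx_Coc. Pygm, which is also in the glycogen list below, is among these markers. It had a mean of 4.27 log2 CPM over the Core libraries without 17-F, so these sums are not a measure of muscle alone. Astrocytes hold most brain glycogen, and their summed markers ran from 1015 to 1262 CPM in Shell Ext_Coc and from 1096 to 1332 in Shell Ctx_Coc. Microglia (Core median 0.15, or 0.01 without 17-F), cortical glutamatergic neurons (-0.05, or 0.04), endothelium (-0.03, or 0.06) and blood (-0.16, or -0.37) had markers in both directions, and no list had a marker at 0 in these 4 groups. In Shell the cortical list had a median of 0.65, with a summed level of up to 595 CPM in Ext_Coc and up to 209 in Ctx_Coc. The median libraries there were at 207 and 199 CPM. The part of any of these in the member values was not tested.

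The end-joining list holds 33 genes and all were tested. Lig4 is among them, and Ext_Coc minus Ctx_Coc is the contrast used for the choice. Its counts here are therefore a description, and nothing is read from them. The share of all genes with a higher estimate is not given. In Ext_Coc minus Ctx_Coc 24 of 33 estimates were higher in Core (median 0.14, against -0.18 over all genes), or 25 without 17-F (0.07, against -0.08), and 20 in Shell (median 0.03, against 0.00), with 0 called. In the saline contrast 8 were higher in Core (median -0.07, against -0.02) and 11 in Shell (median -0.06, against 0.04), again with 0 called. Between subregions 5 of 33 passed, all lower in Shell, where 6.16% of all genes passed as lower, and 0 passed as higher, where 2.85% of all genes did (median -0.10, against 0.01 over all genes). They were Lig3, the ligase of single-strand break repair and alternative end joining, at -0.40 ± 0.11 (edgeR adjusted p = 0.00504), Nbn and Mre11, 2 subunits of the complex that senses breaks, at -0.34 ± 0.09 and -0.21 ± 0.05, Cyren, a regulator of end joining, at -0.23 ± 0.06, and Xrcc5, a Ku subunit, at -0.12 ± 0.04. As above, subregion and series cannot be told apart outside the F series, and with that series alone edgeR called 0 genes. Values of these 5 genes with the background covariate are not given.

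Per length, Lig4 stood 8th of the 33 genes in Core and 9th in Shell. Without 17-F, its Core mean was 1.04 ± 0.328 FPKM (SD, n = 41), close to Lig3 at 1.19 ± 0.106 and above Lig1, the replicative ligase, at 0.510 ± 0.137. Its partners were lower, Xrcc4 at 0.175 ± 0.063 and Nhej1, a scaffold of the same complex, at 0.251 ± 0.141 FPKM. Both span long introns (249242 and 96167 bases). Lig1 and Lig3 also have longer spans, 38713 and 23346 bases, against 8564 for Lig4. By counts the order differed. The median Core library without 17-F held 139 counts of Lig4, 346 of Lig1, 466 of Lig3, 733 of Xrcc4 and 485 of Nhej1.

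The glycogen list also holds 33 tested genes. Phkg1 and Ppp1r3g are among them, so its counts in the contrast used for the choice are likewise a description. In Ext_Coc minus Ctx_Coc 22 estimates were higher in Core (median 0.24, against -0.18 over all genes), or 23 without 17-F (0.12, against -0.08), and 24 in Shell (median 0.03, against 0.00), and 0 were called. In the saline contrast 8 were higher in Core (median -0.08, against -0.02) and 9 in Shell (median -0.13, against 0.04), with 0 called. Between subregions 4 of 33 passed, where 9% of all genes did, and nothing particular to the list is read from that count. Gyg1, glycogenin, the primer of glycogen synthesis, and Phka2, a regulatory subunit of phosphorylase kinase, were higher in Shell at 0.18 ± 0.04 and 0.17 ± 0.04. Ppp1r3g and Pygl, the liver form of glycogen phosphorylase, at -0.26 ± 0.07 (edgeR adjusted p = 0.00662), were lower. The list median was -0.01, against 0.01 over all genes. The limit on telling subregion from series holds for these genes too.

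**Figure D5:**
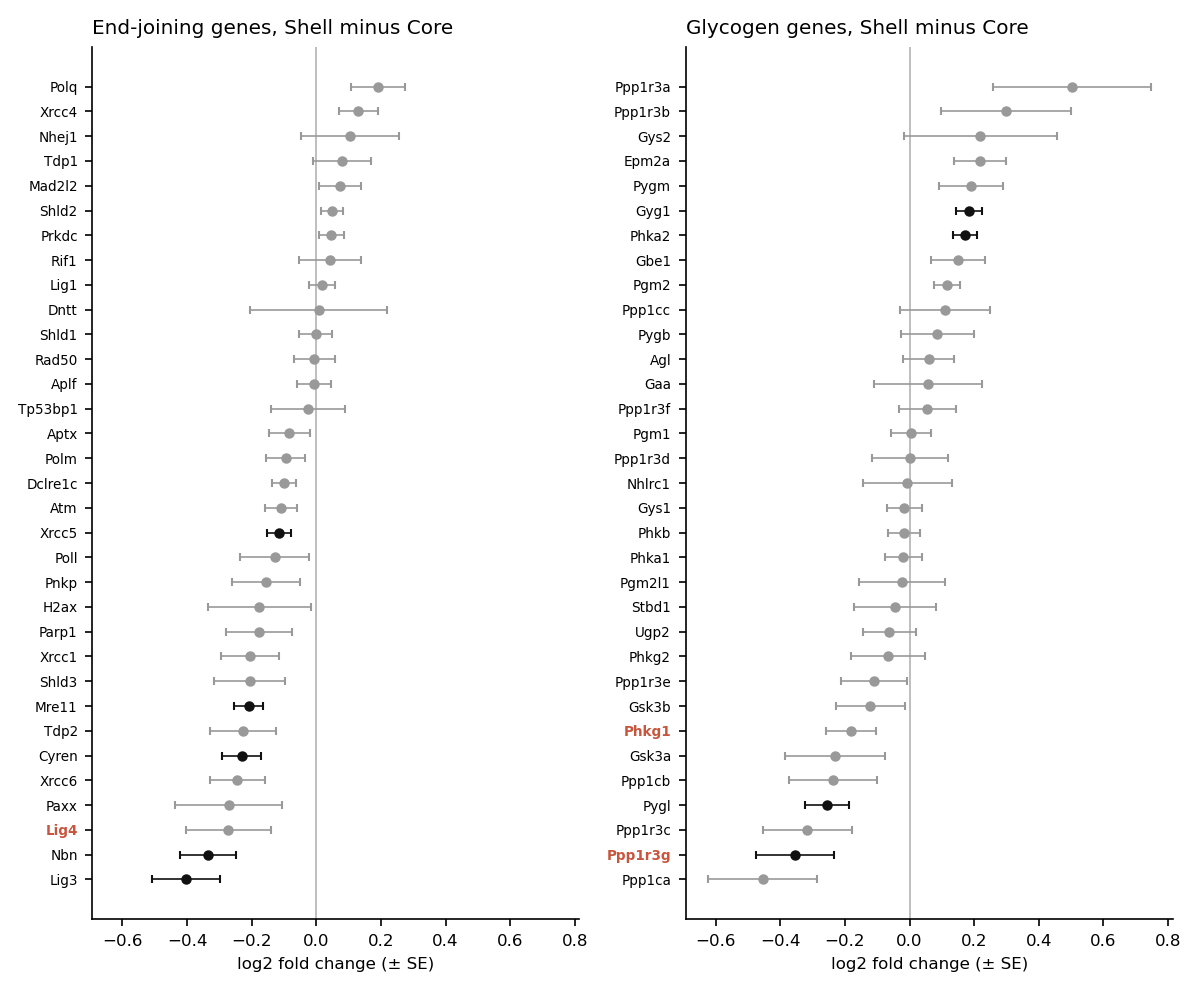
Fitted log2 fold change and SE of Shell minus Core for the 33 end-joining and 33 glycogen genes, ordered by value, with genes past an adjusted p of 0.05 in black and member names in red. The 5 end-joining genes in black are lower in Shell, and the 4 glycogen genes in black divide evenly between both directions.

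Per length, Phkg1 and Ppp1r3g were not the highest members of their gene families. Phkg1 stood 22nd of the 33 glycogen genes in Core at 0.463 ± 0.163 FPKM without 17-F (SD, n = 41), under its paralog Phkg2 at 1.74 ± 0.182. The other subunits of the kinase were at 0.492 ± 0.064 (Phkb), 0.178 ± 0.027 (Phka1) and 0.144 ± 0.036 (Phka2). Of its substrates, the brain phosphorylase Pygb was at 1.55 ± 0.148, the muscle form Pygm at 1.24 ± 0.177 and Pygl at 0.265 ± 0.096 FPKM. Ppp1r3g stood 16th at 0.679 ± 0.151. Among the other targeting subunits Ppp1r3c was higher at 2.82 ± 0.465, Ppp1r3e (0.802 ± 0.197) and Ppp1r3d (0.639 ± 0.115) were near it, and Ppp1r3f (0.444 ± 0.036) and Ppp1r3b (0.247 ± 0.158) were lower. Their target enzyme, glycogen synthase Gys1, was at 0.782 ± 0.146 FPKM. The lengths span introns, and the order by counts differed. The median Core library without 17-F held 123 counts of Phkg1 (15726 bases), 418 of Phka1 (137203 bases) and 300 of Phka2 (122540 bases). It held 38 counts of Ppp1r3g (3333 bases), 225 of Ppp1r3f (29510 bases), 60 of Ppp1r3b (12385 bases), 34 of Ppp1r3d and 15 of Ppp1r3e.

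RefSeq places Chchd2 and Sumf2 beside Phkg1, and Sumf2 overlaps it, so their counts may not be told apart where the strand setting is not given. Sumf2 differed by -0.27 ± 0.12 in Core (-0.25 without 17-F) and -0.11 ± 0.09 in Shell between Ext_Coc and Ctx_Coc (SE), with 40 counts in the lowest Core Ext_Coc library. Chchd2, which encodes a mitochondrial protein, was measured by few counts, with a lowest, median and highest of 6, 21 and 28 in Core Ext_Coc, 3, 7 and 12 in Core Ctx_Coc, 3, 23 and 27 in Shell Ext_Coc and 3, 6 and 14 in Shell Ctx_Coc. The groups overlapped in both subregions. Its fitted difference was 1.50 ± 0.49 in Core (1.26 without 17-F) and 1.37 ± 0.37 in Shell, in the direction opposite to Phkg1. Of the genes beside Lig4, Abhd13 differed by 0.38 ± 0.18 in Core (0.27 without 17-F) and 0.16 ± 0.11 in Shell, and LOC120097573 by -0.79 ± 0.66 (-0.37 without 17-F) and 0.10 ± 0.27. Of those beside Ppp1r3g, Lyrm4 differed by 0.05 ± 0.07 (0.04 without 17-F) and 0.03 ± 0.05, and Rpp40 by 0.21 ± 0.13 (0.22) and 0.02 ± 0.14.

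The genes most like each member were sought by Pearson's r of log2 CPM, taken as deviations from series means, over 83 libraries and 15495 genes. For Lig4 they were Uimc1 (0.76), Mrps6 (0.71), Nasp (0.71), Sdcbp (0.70) and Eea1 (0.70). For Ppp1r3g they were Cd24 (0.64), Ezr (0.62), Fam107a (0.62), Inf2 (0.61) and Pcp4 (0.61). These 10 genes had r of -0.71 to -0.90 with the background level, as against -0.61 for Lig4 and -0.39 for Ppp1r3g on the same scale. For Phkg1 they were Slc16a6 (0.66), Txnrd2 (0.60), Nkd2 (0.60), Niban3 (0.58) and Relt (0.57), with r of -0.02 to 0.52 with the background and 0.14 for Phkg1. Among the members, r was -0.45 between Lig4 and Phkg1, 0.32 between Lig4 and Ppp1r3g and -0.09 between Phkg1 and Ppp1r3g. By subregion, on levels, r between Lig4 and Ppp1r3g was 0.70 over 41 Core and 0.08 over 42 Shell libraries, that between Lig4 and Phkg1 was -0.50 and -0.52, and that between Phkg1 and Ppp1r3g was -0.27 and 0.11. The libraries of the contrast used for the choice, other than 17-F, enter these values, which carry no test. All genes of a library share its TMM factor, and the part of that factor in these r values was not tested.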

How the data were processed

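The 84 libraries were grouped by their titles. Per the labels' protocols, RNA came from Direct-zol columns and total RNA libraries were prepared with a SMARTer Stranded Pico kit. The authors deposited whole-number counts per gene, made with featureCounts on mRatBN7.2 per the submitters' processing notes, and FPKM values. Counts divided by FPKM gave each member the same length in all libraries. The aligner, annotation and strand setting were not given in the sources used here. No row lacked a gene name and 0 columns were left unused.

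The members and gene lists were chosen with earlier results of these data known. After filterByExpr, counts were normalised with TMM factors and compared with edgeR 4.0.16 (two-sided quasi-likelihood F test) in R 4.3.3, with Benjamini-Hochberg adjustment over all genes and a threshold of 0.05. The fit held the 42 libraries of a subregion with series as a covariate, or all 84 libraries for Shell minus Core. The 3 members had 27 tests in 9 comparisons. Of these 3, all in Shell minus Core, had an unadjusted p under 0.05. Member levels are log2 CPM on TMM-scaled library sizes with a prior count of 2. The background level and the marker sums use library totals without TMM factors. Scripts were tested on simulated data.

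Genes named in the text are the members, their RefSeq neighbours, list genes past the threshold, named paralogs and partners, and the 5 genes most like each member. Alternatives were DESeq2 1.42.0 (its size factors, or its Wald test), all genes without a filter, a fit without series, a fit of just the 2 groups, leaving out the F series or using it alone, leaving out 17-F, the background level as a covariate, a prior count of 0.5, leaving out each library, and a replicate block.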

Additional observations from a re-analysis of the deposited data

Results flagged for a closer look

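Of 36 groups of 7 libraries (3 genes in 12 groups), 2 had a library far from the others by Dixon's test, where chance flags about 1 in 20 groups. Both were Phkg1 in Core libraries of the F series. In HC_Coc, library 13-F was at 1.65 log2 CPM, below the others at 2.68 to 3.31, with a gap of 0.619 of the range. In Ext_Sal, library 3-F was at 1.60 log2 CPM, below the others at 2.78 to 3.13, with a gap of 0.773 of the range.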

How the results depend on the processing

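The Ext_Coc minus Ctx_Coc values kept their direction under the alternatives run, except Ppp1r3g in Shell with the F series alone (-0.02) and without Ext_Coc library 3-2 (-0.01). Phkg1 in Core moved to -1.28 with the F series alone. Leaving out each library gave 0.93 to 1.22 for Lig4, -0.63 to -0.42 for Phkg1 and 0.67 to 0.92 for Ppp1r3g in Core, and 0.65 to 0.78, -0.52 to -0.41 and -0.01 to 0.27 in Shell. The number of genes called between Shell and Core, 2894, became 11876 with the background covariate (12820 without 17-F as well), 0 with the F series alone and 36 when that series was used without 17-F. No tested contrast within a subregion gave a member call under the alternatives run for it (leaving out each library was run for the Ext minus Ctx contrasts only). The values of tested contrasts that changed sign follow. In Core Ext_Sal minus Ctx_Sal, Lig4 became 0.0504 without series, 0.0344 with just the 2 groups, 0.91 with the F series alone, 0.0913 with the background covariate and 0.0885 with that covariate and without 17-F. Ppp1r3g became 0.0048 with DESeq2 size factors, 0.0070 with its Wald test, 0.0390 with the background covariate and 0.0166 without 17-F as well. In Core Ext_Sal minus HC_Sal, Lig4 became -0.0376 and -0.0319 with the background covariate (with and without 17-F), and Ppp1r3g 0.0430 with the F series alone. In Core Ctx_Sal minus HC_Sal, Lig4 became -0.55 with the F series alone and -0.13 and -0.12 with the background covariate, and Ppp1r3g 0.0185 without series and 0.12 with the F series alone. In Core HC_Coc minus HC_Sal, Phkg1 became 0.17 without the F series and 0.0112 and 0.0296 with the background covariate, and Ppp1r3g 0.0073 without series and 0.48 with the F series alone. In Shell Ext_Sal minus Ctx_Sal, Lig4 became 0.0184 without series, 0.0210 with just the 2 groups, 0.78 with the F series alone and 0.0736 with the background covariate. In Shell Ext_Sal minus HC_Sal, Phkg1 became 0.0083, 0.0109, 0.0635 and 0.0158 (without series, just the 2 groups, no F series, background covariate), and in Shell Ctx_Sal minus HC_Sal Lig4 became -0.59 with the F series alone. Between Shell and Core, Lig4 became 0.0172 with the background covariate and 0.0160 without 17-F as well. Leaving out each library moved Ext_Sal minus Ctx_Sal from -0.23 to 0.0564 for Lig4 and -0.14 to 0.0575 for Ppp1r3g in Core, and from -0.19 to 0.0533 for Lig4 in Shell. Among the untested contrasts that share Ext_Coc or Ctx_Coc libraries, the F series alone gave Lig4 0.24 in Core and 0.40 in Shell, and Phkg1 -0.13 and Ppp1r3g -0.02 in Shell, for Ctx_Coc minus Ctx_Sal. It gave Ppp1r3g -0.11 in Core and -0.09 in Shell for Ext_Coc minus HC_Coc, Ppp1r3g -0.07 in Shell for Ctx_Coc minus HC_Coc, and Phkg1 0.15 in Shell for Ext_Coc minus Ext_Sal. Without the F series Phkg1 was at -0.06 in Core Ctx_Coc minus HC_Coc and Lig4 at 0.12 in Shell Ext_Coc minus HC_Coc (0.14 with the background covariate). DESeq2 size factors and its Wald test both gave Phkg1 0.03 in Core Ctx_Coc minus Ctx_Sal. The cause of these changes was not tested.

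Title numbers match 30 Core with 30 Shell libraries (1-k with 3-k, 2-k with 4-k) of the same treatment, and the labels do not say what a number marks. The correlation of deviations exceeded 0.1 in 19 of 30 pairs over all genes and in 28 over the 200 most variable, and, after the background level, in 23 and 30. In the same order 7, 19, 15 and 24 of 30 libraries correlated best with their own number, and the median r was 0.211, 0.423, 0.164 and 0.452, against -0.019 to -0.005 for other pairs. Every pair was over 0.1 in 1 of these 4 forms, so the data hint at a pairing that neither the labels nor the all-gene form establishes. With the replicate block over these libraries, which leaves out the F series, Phkg1 was at -0.22 ± 0.06 (edgeR adjusted p = 0.0182), Ppp1r3g at -0.28 ± 0.10 (0.0863) and Lig4 at -0.14 ± 0.10 (0.461), with 830 genes called higher and 1556 lower. Few counts, a median of 33.5 to 143.5 a library, limit the precision of every member value.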
